A study of Mus musculus with 21 samples.

Results

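The genes described here encode the protein parts of lipoproteins and the factor that loads them: the structural apolipoprotein B (Apob), the exchangeable apolipoproteins Apoa1, Apoa2, Apoa4, Apoc1, Apoc2, Apoc3 and Apom, the plasma glycoprotein beta-2-glycoprotein I (Apoh), and the microsomal triglyceride transfer protein (Mttp). They were taken by name as 10 of the 55227 genes with a symbol in the count table. They were followed in 21 RNA-seq libraries of tumours of Hepa1-6, an established mouse hepatoma cell line, in C57BL/6 mice. The series asks what B cells contribute when a liver tumour is treated with checkpoint antibodies.

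All 21 libraries came from the same tumour line and strain, and 4 groups were formed from the sample titles. WT mice with an isotype control antibody gave 5 libraries, and WT mice with anti-PD1 and anti-CTLA4 (the combination) gave 5. Mice depleted of B cells gave 6 libraries with isotype antibody and 5 with the combination. The method of depletion, doses, treatment times, the age and sex of the mice and the site of the tumours are not given in the labels used here. The labels also do not say whether each library is a separate animal, so p-values measure the spread between these libraries, which may be technical. RNA was extracted from whole frozen tissue, so fewer tumour cells and less of a transcript per tumour cell cannot be told apart.

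Apolipoprotein B is the backbone of very low density lipoproteins and chylomicrons. In hepatocytes and enterocytes, Mttp transfers lipid onto it as it enters the endoplasmic reticulum, and without that transfer the protein is degraded. The exchangeable apolipoproteins sit on the particle surface, where Apoa1 accepts cholesterol for high density lipoproteins and Apoc2 activates lipoprotein lipase. Hepatoma cells keep parts of this hepatocyte programme to different degrees.

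The genes lie on 7 chromosomes (GRCm38, GENCODE M21). Apob is at chr12:7977648-8016835 and Mttp at chr3:138089854-138144968. Apoa1 (chr9:46228580-46230466), Apoc3 (chr9:46232933-46235636) and Apoa4 (chr9:46240696-46243459) form a cluster, with 2.47 kb between the first pair and 5.06 kb between the second. Apoc2 (chr7:19671579-19677941) and Apoc1 (chr7:19689481-19692660) are 11.54 kb apart. Apoa2 is at chr1:171225054-171226379, Apoh at chr11:108343354-108414396 and Apom at chr17:35128997-35132050. Reads of Apoc2 are uncertain in assignment, because 646 of its 813 exon bases (79.5%) also belong, on the same strand, to Gm44805, a read-through model to the neighbouring Apoc4 that was at 0 reads in all 21 libraries. Exons of opposite-strand genes cover 9.5% of Mttp and 69.8% of Apoa4, and whether reads were counted by strand is not given in the sources used here.

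The promoter sequences of the most abundant member, Apob, and of Apoa1 and Apoc2, which fell with it in WT tumours, are shown with that of Apoa2, a gene that stayed near 0 reads. They are the longest run of each RefSeq promoter window (GRCm38.p6) outside every annotated exon, 5′ to 3′ on the gene's strand, with matches to searched motifs in capitals. For Apoc2 this leaves out 109 bases of the window that lie in an exon of Apoc4.
Apob (chr12:7977427-7977647, + strand): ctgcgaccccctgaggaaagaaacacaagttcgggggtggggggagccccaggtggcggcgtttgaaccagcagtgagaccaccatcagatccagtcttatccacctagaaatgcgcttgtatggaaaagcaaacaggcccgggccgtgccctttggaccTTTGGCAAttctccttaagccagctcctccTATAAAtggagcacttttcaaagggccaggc
Apoa1 (chr9:46228380-46228579, + strand): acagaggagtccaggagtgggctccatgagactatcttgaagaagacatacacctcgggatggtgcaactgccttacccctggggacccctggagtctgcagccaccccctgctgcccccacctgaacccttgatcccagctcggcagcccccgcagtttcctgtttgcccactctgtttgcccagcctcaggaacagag
Apoc2 (chr7:19677942-19678082, - strand): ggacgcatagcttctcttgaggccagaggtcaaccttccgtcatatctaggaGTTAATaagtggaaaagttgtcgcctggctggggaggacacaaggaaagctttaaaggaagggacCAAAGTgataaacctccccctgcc
Apoa2 (chr1:171224804-171225053, + strand): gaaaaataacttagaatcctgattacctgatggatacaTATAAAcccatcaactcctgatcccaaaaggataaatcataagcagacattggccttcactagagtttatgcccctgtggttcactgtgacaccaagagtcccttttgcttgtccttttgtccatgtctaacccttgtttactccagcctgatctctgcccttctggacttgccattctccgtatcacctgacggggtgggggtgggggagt
The capitals mark TATAAA (the letters of the TATA box) and, as TTTGGCAA, a minus-strand match to TTGCNNAA (C/EBP) in Apob, GTTAAT (part of the HNF1 motif) and CAAAGT (a core of the HNF4 motif) in Apoc2, and TATAAA in Apoa2. The TATAAA match lay 60 to 55 bases before the RefSeq start in Apob and 212 to 207 bases before it in Apoa2. In Apob the last 29 bases before the RefSeq start lie in its GENCODE exon, so the match is nearer to the GENCODE start. In Apoa2 the RefSeq and GENCODE starts coincide. Both strands of the 250 bases before each start were searched for 6 letter patterns, and none of them matched in Apoa1. Of 32851 promoters of that length, 12.4% held TATAAA, 9.6% TTGCNNAA, 6.4% GTTAAT and 12.6% CAAAGT. The longer patterns CAAAGTCCA (HNF4, which contains CAAAGT) and TCACNCCAC (the sterol response element) were in 0.4% and 1.1% of all promoters. TCACNCCAC was in 0 of the 9 RefSeq windows that 8 of the 10 genes have.

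Apob had the highest level of the 10 genes. Levels are counts per 1000000 counts of the library (CPM), divided by exon length in kb where genes are compared with each other. Apob was at 26.7 ± 12.6 CPM per kb (SD over 21 libraries), above 97.1% of all genes. Next, by full exon length, were Apoa1 at 2.33 ± 2.69, Apoc1 at 2.22 ± 1.66, Apoc2 at 2.13 ± 1.1 and Mttp at 1.7 ± 0.666 CPM per kb. By that measure these 4 did not differ beyond their spread over libraries. Per kb of exon shared with no other gene on its strand, Apoc2 averaged 14.4 CPM in WT isotype and 3.06 in WT combination. It averaged 13.1 in B-depleted isotype and 10.3 in B-depleted combination. Its place among these genes thus depends on how shared reads were counted, which is not given. Apoa2 followed at 0.339, Apom at 0.0872, Apoh at 0.0859, Apoa4 at 0.00781 and Apoc3 at 0.00381 CPM per kb. Apob alone gave from 82.82% to 97.81% of the CPM of the 10 genes in a library.

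**Figure D1:**
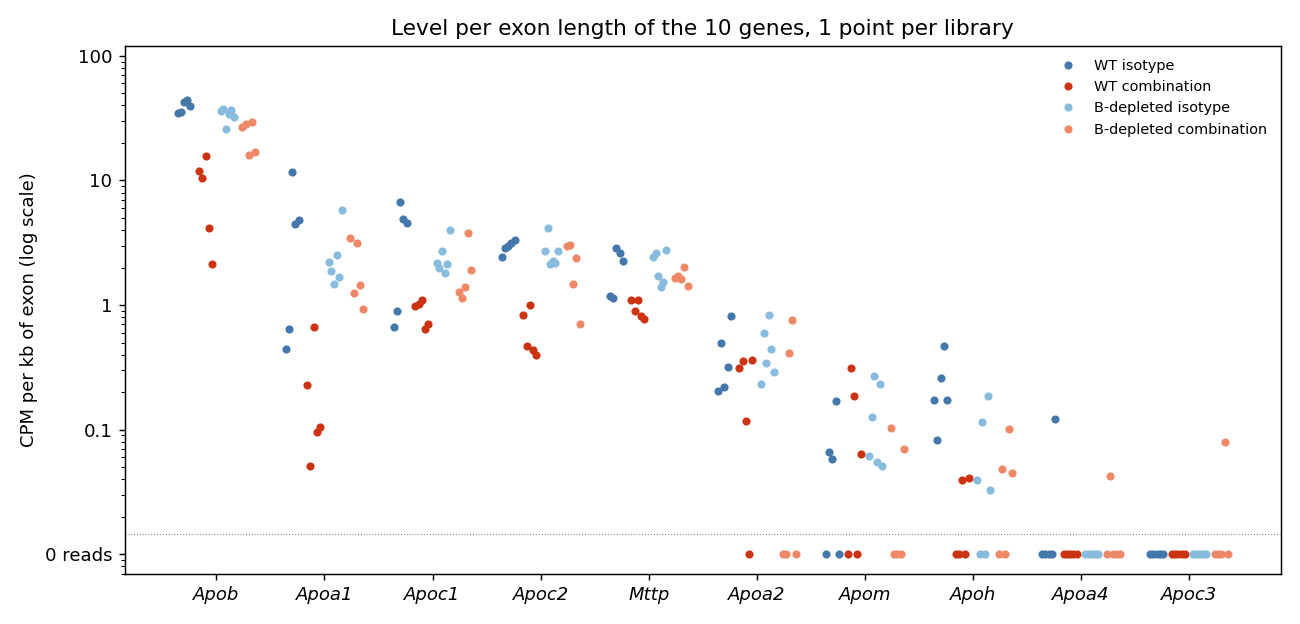
Level of each of the 10 genes in CPM per kb of exon (log axis), with 1 point per library coloured by group. Apob lies above every other gene in all libraries, and Apoa4 and Apoc3 were detected in 2 and 1 libraries. Apoa1, Apoc1, Apoc2 and Mttp overlap, with means of 1.7 to 2.33 CPM per kb. Of these, Apoa1 is spread most widely and Mttp least. Apoc2 is divided by its full exon length, most of which it shares with Gm44805.

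The 5 genes near 0 hold much of the mature hepatocyte's plasma apolipoprotein set. Apoc3, an inhibitor of triglyceride clearance, had 1 read in 1 library of the 21, and Apoa4, mainly an intestinal apolipoprotein, had 5 reads in 2 libraries. In a group with 0 reads, the limit a count of 0 allows (3 counts over the group) was 0.035 CPM in WT isotype, 0.0367 in WT combination, 0.0311 in B-depleted isotype and 0.0482 in B-depleted combination, for counting error only. Apoa2, a protein of high density lipoproteins, had 61 reads over 17 libraries. Apom, which carries sphingosine 1-phosphate, had 28 reads over 14 libraries. Apoh, a phospholipid-binding plasma glycoprotein, had 47 reads over 14 libraries, of which 32 lay in WT isotype and 2 in WT combination. Its WT isotype libraries stood at 0.276, 0.133, 0.412, 0.744 and 0.276 CPM, and its WT combination libraries at 0, 0, 0.0629, 0 and 0.0652 CPM. The WT groups did not overlap for Apoh, but it was too low to enter the test.

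Adult hepatocyte enzymes (11 genes of drug, amino acid and urinary protein metabolism) were also low, with sums from 0.599 to 7.04 CPM in every library but B-depleted combination replicate 4, where the sum was 54.9 CPM, of which Cyp2e1 gave 51.1 CPM. That library also held the only Apoc3 read, at 0.0812 CPM, and its 3 adipocyte markers summed to 92 CPM, beside at most 4.43 CPM in any other library. Mup20 was at 0 in the other 3 groups. By contrast, secretory hepatocyte genes (Alb, Ttr, Trf and others, 9 genes) summed to 996 to 3690 CPM in WT isotype. Albumin alone was at 1200 ± 719 CPM in that group (Alb, SD, n = 5), while most enzymes of the adult liver were near 0.

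In WT tumours, Apob, Apoa1, Apoc1, Apoc2 and Mttp were lower with the combination than with isotype antibody. The test was edgeR's quasi-likelihood test on counts, with p adjusted over the 19061 genes that passed a filter on low counts (about 0.629 CPM in at least 5 libraries), and a gene was called at an adjusted p under 0.05. Of the 10 genes, these 5 passed that filter, and each was called lower, beside 25.0% of all genes tested that were called lower and 50.0% that were called in either direction. The median log2 fold change of all genes was 0.

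Apob, the structural protein, stood at 484, 493, 593, 610 and 553 CPM in WT isotype and at 165, 146, 217, 57.6 and 29.5 CPM in WT combination. The groups did not overlap, and the combination libraries were spread over a wider range, with replicates 4 and 5 lowest. Apob fell from 547 ± 57 to 123 ± 77.8 CPM (SD, n = 5 each), a log2 fold change of -2.13 ± 0.36 (SE), or 4.38-fold (edgeR adjusted p = 0.000198). Mttp, the lipid transfer protein, stood at 7.4, 7.12, 17.8, 16.3 and 14.1 CPM in WT isotype and at 6.86, 5.52, 6.79, 5.04 and 4.82 CPM in WT combination. Its groups did not overlap either, but isotype replicates 1 and 2 lay just above the highest combination library. Mttp fell 2.14-fold (-1.09 ± 0.25, edgeR adjusted p = 0.00174).

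Apoa1, the main protein of high density lipoproteins, had the steepest decline of these 5 genes. It stood at 0.552, 0.798, 14.3, 5.5 and 5.96 CPM in WT isotype and at 0.281, 0.0634, 0.818, 0.119 and 0.13 CPM in WT combination. Isotype replicates 1 and 2 lay below combination replicate 3, so the groups overlapped. The log2 fold change was -4.23 ± 0.84, or 18.8-fold (edgeR adjusted p = 0.000641), and the combination libraries held 1 to 13 reads of the gene each.

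Both tested C-class apolipoproteins of the 10 genes fell, while Apoc3 was too low to be tested. Apoc1, an inhibitor of lipoprotein lipase and receptor uptake, stood at 0.497, 0.665, 5, 3.66 and 3.36 CPM in WT isotype and at 0.731, 0.761, 0.818, 0.475 and 0.521 CPM in WT combination. Its isotype replicates 1 and 2 lay inside the combination range, and the other 3 far above it (-1.98 ± 0.52, edgeR adjusted p = 0.00423). Under limma-voom its adjusted p was 0.0562 (-1.46). Apoc2, the activator of lipoprotein lipase, stood at 1.99, 2.33, 2.41, 2.58 and 2.7 CPM in WT isotype and at 0.675, 0.381, 0.818, 0.356 and 0.326 CPM in WT combination. Here the isotype libraries were close together and did not overlap the combination libraries (-2.19 ± 0.33, edgeR adjusted p = 0.000106). Of all genes tested, 14.3% had lower and non-overlapping groups in this comparison.

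The 2 WT isotype libraries that were low in Apoa1, Apoc1 and Mttp, replicates 1 and 2, were not low in Apob or Apoc2 to the same degree. Their hepatoma and oncofetal genes (Afp, Igf2, H19, Dlk1 and Gpc3) summed to 159 and 189 CPM, beside 813 to 1510 CPM in the other 3, and their secretory hepatocyte genes to 996 and 1150 CPM beside 2420 to 3690. Without both libraries, Apoa1 changed by -4.9 ± 0.65, Apoc1 by -2.59 ± 0.36 and Mttp by -1.46 ± 0.21, while Apob (-2.24 ± 0.4) and Apoc2 (-2.3 ± 0.38) moved little. All 5 had an edgeR adjusted p of 0.000404 or less. Replicates 1 and 2 held the lowest WT isotype values of each of these genes, so leaving them out enlarges the WT decline by construction.

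**Figure D2:**
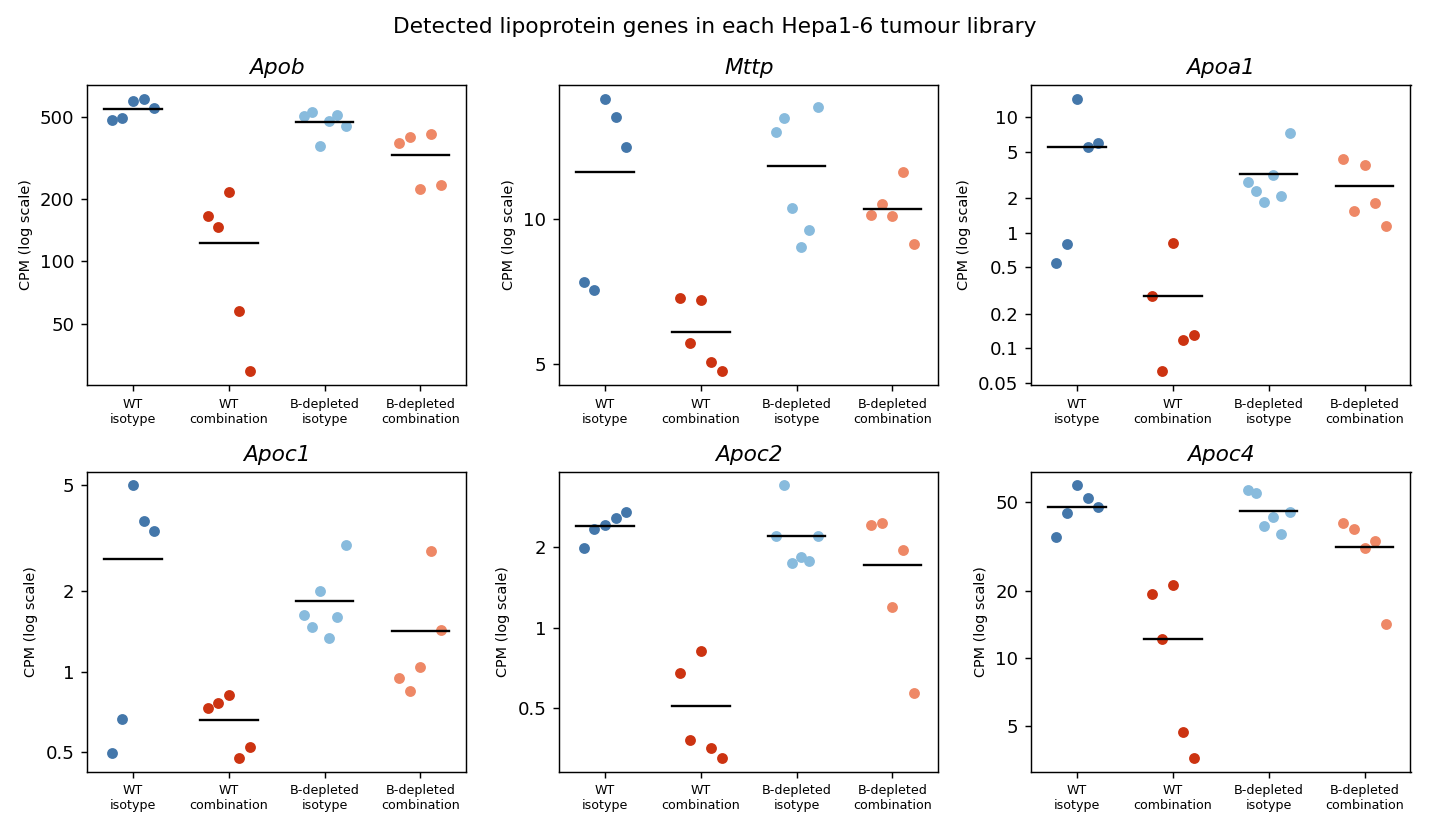
CPM (log axis) of the 5 tested genes and of Apoc4 in each library, with 1 point per library and a line at the group mean. WT combination lies lowest for each gene, and WT isotype falls into 2 low and 3 high libraries for Apoa1, Apoc1 and Mttp but not for Apob, Apoc2 or Apoc4.

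In tumours of B-depleted mice, none of the 5 tested genes passed the threshold. The edgeR test called 0 of 5, beside 0.341% of all genes called in either direction and 0.0367% called lower. At an unadjusted p under 0.05 in the fit of all 21 libraries the count was also 0, and it was 0 by DESeq2 and by limma-voom. All 5 estimates were below 0. Apob ran from 362 to 523 CPM with a median of 490 in B-depleted isotype, and stood at 374, 397, 223, 412 and 233 CPM in B-depleted combination. The groups overlapped, with combination replicates 3 and 5 below every isotype library, and the log2 fold change was -0.51 (95% interval -1.19 to 0.18, edgeR adjusted p = 0.49). With only the groups compared in the fit, Apob changed by -0.53 with a smaller SE, 0.16 in place of 0.33 (edgeR adjusted p = 0.211). The count called in that fit was also 0. Mttp changed by -0.28 (-0.78 to 0.21), Apoc2 by -0.35 (-0.97 to 0.27), Apoc1 by -0.35 (-1.35 to 0.66) and Apoa1 by -0.37 (-1.74 to 1.01), with edgeR adjusted p from 0.603 to 0.827. Each of the 5 intervals lay above the WT estimate of its gene, which has an error of its own, and each held declines smaller than that estimate.

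Under isotype antibody, B-depleted and WT tumours gave no call for the 5 genes, and edgeR called 0% of all genes. At an unadjusted p under 0.05 there were 563 genes, none of them among the 5, and DESeq2 called 5 genes in all. The log2 differences (B-depleted minus WT) were -0.23 for Apob (95% interval -0.91 to 0.45), -0.78 for Apoa1 (-2.08 to 0.53), -0.54 for Apoc1 (-1.49 to 0.4), -0.15 for Apoc2 (-0.74 to 0.45) and 0.02 for Mttp (-0.47 to 0.51). Differences of more than 2-fold in Apoa1 and Apoc1 thus lie within their intervals.

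With the combination given to both, B-depleted tumours held more of 4 of the 5 genes than WT tumours, beside 15.5% of all genes called higher, 13.5% called lower and 29.1% called either way. Apob was 2.63-fold higher, at 328 ± 92.1 against 123 ± 77.8 CPM (SD, n = 5 each; log2 1.39 ± 0.35, edgeR adjusted p = 0.0116). With only the groups compared in the fit, its edgeR adjusted p was 0.0536 (1.38). The lowest B-depleted library, at 223 CPM, lay just above the highest WT library, at 217 CPM. Mttp was 1.78-fold higher, with B-depleted libraries from 8.85 to 12.5 CPM and WT libraries from 4.82 to 6.86 CPM (0.83 ± 0.25, edgeR adjusted p = 0.0226). That call was lost without WT combination replicate 4 (0.78, adjusted p = 0.0639), replicate 5 (0.77, 0.0653) or B-depleted combination replicate 4 (0.76, 0.0562).

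Apoa1 stood at 4.31, 1.54, 3.87, 1.79 and 1.14 CPM in B-depleted combination and did not overlap WT combination. It was 8.49-fold higher (3.09 ± 0.85, edgeR adjusted p = 0.016), a call lost by limma-voom (3.26, adjusted p = 0.0646). Apoc2 stood at 2.42, 2.46, 1.19, 1.95 and 0.571 CPM, where replicate 5 fell inside the WT range, and was 3.23-fold higher (1.69 ± 0.34, edgeR adjusted p = 0.00614). Apoc1 stood at 0.945, 0.847, 1.04, 2.84 and 1.43 CPM, each above the WT combination range, but did not pass the edgeR test (1.09 ± 0.54, 95% interval -0.03 to 2.21, adjusted p = 0.124). Without WT isotype replicates 1 and 2, which enter only the estimate of spread here, its adjusted p was 0.0288. Of all genes tested, 4.51% had higher and non-overlapping groups. This comparison shares the WT combination libraries with the WT antibody comparison, so a low value in those libraries enters both.

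The difference between the antibody responses of B-depleted and WT tumours was tested as an interaction. By edgeR 0 of the 5 genes passed, beside 0.0262% of all genes. All 5 had an unadjusted p under 0.05, as did 4881 of the 19061 genes tested. The estimates were 1.62 ± 0.47 for Apob (adjusted p = 0.0908), 3.86 ± 1.06 for Apoa1 (0.0821), 1.63 ± 0.7 for Apoc1 (0.159), 1.84 ± 0.45 for Apoc2 (0.0745) and 0.81 ± 0.34 for Mttp (0.154). DESeq2 called 3, namely Apob, Apoa1 and Apoc2, with adjusted p of 0.0224, 0.00917 and 0.0077, beside 1210 of all genes. Without WT isotype replicates 1 and 2 all 5 passed in edgeR, beside 2007 of all genes, with adjusted p from 0.0137 (Apoa1) to 0.0483 (Apob). Those replicates held the lowest WT isotype values of each of the 5 genes, so their removal enlarges the interaction by construction. Without WT combination replicate 3, and likewise without B-depleted combination replicate 5, 3 of the 5 passed, beside 1540 and 1382 of all genes. Without WT combination replicate 1 only Apoc2 of the 5 passed, at an edgeR adjusted p of 0.0472, beside 361 of all genes.

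**Figure D3:**
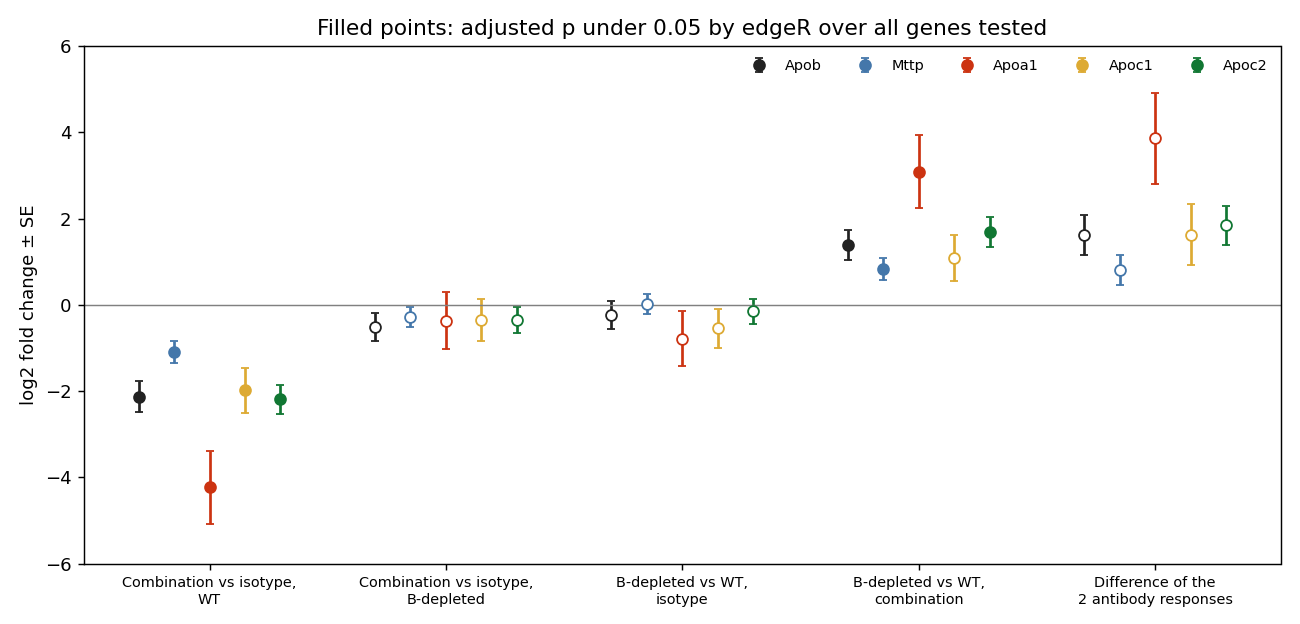
Log2 fold change ± SE for the 5 tested genes in the 4 pairwise comparisons and the interaction. Filled points passed an edgeR adjusted p under 0.05. The WT antibody response lies below 0 and is filled for each gene. B-depleted against WT under the combination lies above 0 for each gene and is filled for each but Apoc1. No point is filled in the B-depleted antibody response, the isotype comparison or the interaction.

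Marker transcripts of cell types and transcripts of the Y chromosome also differed between the groups. In WT tumours, 9 of 10 macrophage markers and 6 of 6 T cell markers rose with the combination, their sums going from 842 to 1610 CPM to 2010 to 3670 CPM for macrophages and from 55.7 to 110 CPM to 261 to 429 CPM for T cells. Of 5 fibroblast markers 4 rose, with a median log2 fold change of 2.16 and sums going from 2630 to 4940 CPM to 7240 to 25800 CPM. All 8 tested secretory hepatocyte genes fell, with a median log2 fold change of -3.54 and sums of 402 to 1390 CPM under the combination. Of all genes tested, 25.0% were called higher and 25.0% lower in WT tumours. In the B-depleted antibody response 3 of 6 T cell and 1 of 10 macrophage markers were called higher, beside 0.341% of all genes called in either direction. There 0 of 5 fibroblast markers and 0 of 8 tested secretory hepatocyte genes passed. In B-depleted against WT tumours under the combination, 8 of 10 macrophage, 4 of 6 T cell and 4 of 4 B cell markers were lower. There 0 of 5 fibroblast markers passed, and 7 of 8 tested secretory hepatocyte genes were higher. Of all genes tested, 13.5% were called lower and 15.5% higher in that comparison. The sums in B-depleted combination were 1290 to 2290 CPM for macrophages, 158 to 222 CPM for T cells, 2860 to 24200 CPM for fibroblasts and 777 to 2380 CPM for the secretory hepatocyte genes. The part of these cells in the results for the 5 lipoprotein genes was not tested. Of 6 intestinal markers, Vil1 and Cdh17 were expressed, with means of 98.9 and 448 CPM in WT isotype. The others were low, with WT isotype means of 1.41 CPM for Sis, 1.23 for Lct, 0.324 for Fabp2 and 0.0559 for Alpi. Alpi had 5 reads in WT isotype, 4 in B-depleted isotype and 0 in both combination groups. The 4 Y-linked genes Ddx3y, Eif2s3y, Kdm5d and Uty summed to 47.6 to 79.2 CPM in WT isotype and to 135 to 250 CPM in WT combination, without overlap. In B-depleted tumours their sums were 46.3 to 119 CPM with isotype antibody and 85.9 to 169 CPM with the combination. Whichever cells these transcripts came from, in WT tumours their level and the antibody treatment cannot be told apart.

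With the Y-linked level as a covariate, 0 of the 5 genes were called in the WT comparison. Apob changed by -1.25 (edgeR adjusted p = 0.311), Apoa1 by -1.82 (0.599), Apoc1 by -1.32 (0.597), Apoc2 by -1.19 (0.267) and Mttp by -0.23 (0.87), and the calls over all genes went from 9529 to 77. In B-depleted against WT under the combination the covariate also left 0 of 5 called, with estimates of 0.95, 1.87, 0.76, 1.12 and 0.38 in the same order. As the Y-linked sums of the WT groups did not overlap, the covariate also takes up the treatment difference in WT tumours. The lost calls thus cannot show what part Y-linked transcripts had. That part was not tested in either comparison.

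**Figure D4:**
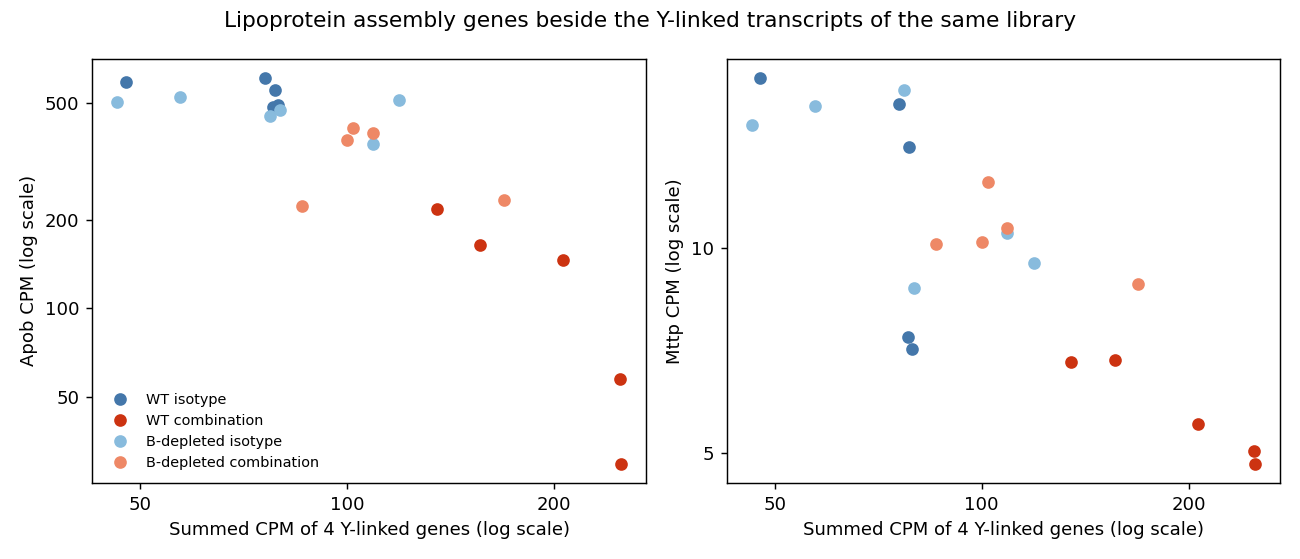
Apob and Mttp (CPM, log axis) against the summed CPM of 4 Y-linked genes (log axis), with 1 point per library coloured by group. WT combination libraries run from 135 to 250 CPM of Y-linked transcripts and are the lowest in Apob and Mttp, and B-depleted combination replicate 5, at 169 CPM, lies inside their Y-linked range.

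B-cell transcripts checked the depletion. Their summed level was 1.76 to 3.2 CPM in WT isotype, 4.65 to 17.3 in WT combination, 0.188 to 2.29 in B-depleted isotype and 0.67 to 4.07 in B-depleted combination. B-depleted isotype replicate 3, at 2.29 CPM, was the only depleted library that reached the lowest WT library of its antibody. Without it, the B-depleted antibody response was -0.58 for Apob and -0.34 for Mttp, and none of the 5 genes was called.

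Of 13 other apolipoproteins, 11 were tested, and in the WT comparison 2 rose and 1 fell. The one that fell was Apoc4, a neighbour of Apoc2 and a minor component of very low density lipoproteins, from 47.6 ± 9.04 to 12.2 ± 8.12 CPM (-1.94 ± 0.37, edgeR adjusted p = 0.000487). Per kb of exon shared with no other gene on its strand, Apoc4 went from 19.7 ± 3.74 to 5.06 ± 3.36 CPM and Apoc2 from 14.4 ± 1.64 to 3.06 ± 1.33 CPM. In B-depleted against WT under the combination Apoc4 was higher (1.33 ± 0.37, edgeR adjusted p = 0.016). Those that rose in WT, Apol6 (1.24) and Apol7a (1.08, adjusted p = 0.0338), are intracellular proteins of the apolipoprotein L family that do not build plasma particles. The median log2 fold change of the tested genes was 0.11.

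Genes that assist assembly and secretion moved both ways in WT tumours, with 4 of 19 tested genes higher, 6 lower and a median of -0.04, a share called near the 50.0% of all genes. Soat1, which esterifies cholesterol, rose from 108 ± 5.68 to 297 ± 70.7 CPM (1.48 ± 0.19, edgeR adjusted p = 3.99e-05). Gpam, the first enzyme of triglyceride synthesis, fell from 153 ± 62.3 to 55.3 ± 18.2 CPM (-1.45 ± 0.27, edgeR adjusted p = 0.000473). The protein disulfide isomerase P4hb, which is the partner subunit of Mttp, fell by 0.55 on the log2 scale (edgeR adjusted p = 0.00237), and the chaperone calnexin (Canx) fell by 0.41 (0.00172). The decline of P4hb was thus smaller than that of its partner Mttp. Under the combination, B-depleted tumours had less Soat1 (-0.86 ± 0.19, edgeR adjusted p = 0.00797) and more Gpam (1.11 ± 0.27, 0.0111) than WT tumours, with 3 of 19 higher and 2 lower.

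Of 9 tested plasma remodelling genes, 2 rose, 0 fell and 7 did not pass in WT tumours (median log2 fold change 0), beside 25.0% of all genes called higher, so the count is near that of all genes. Lpl, the lipase that Apoc2 activates, rose from 171 ± 14.4 to 408 ± 193 CPM (1.27 ± 0.28, edgeR adjusted p = 0.0012), and Pltp, the phospholipid transfer protein, from 35.2 ± 10.9 to 112 ± 59.4 CPM (1.7 ± 0.42, 0.00289). Of 3 tested efflux genes 2 rose, beside the same 25.0%. Abcg1 rose from 68.6 ± 6.55 to 247 ± 105 CPM (1.87 ± 0.27, edgeR adjusted p = 7.05e-05) and Abca1, which loads Apoa1 with cholesterol, from 396 ± 103 to 929 ± 388 CPM (1.25 ± 0.24, 0.000589). Macrophages also express Soat1, Lpl, Abca1 and Abcg1, and 9 of 10 macrophage markers rose in the same libraries, whose part in these results was not tested. Lpl (-0.81, edgeR adjusted p = 0.0339) and Abcg1 (-1.07, 0.0107) were lower in B-depleted than in WT tumours under the combination.

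All 11 tested lipoprotein receptors and their partners changed in WT tumours, 5 up and 6 down, beside 50.0% of all genes called in either direction. The receptor chaperone Lrpap1 (0.88, edgeR adjusted p = 0.000195) and Mylip (1.37, 0.000308), a ligase that removes the low density lipoprotein receptor, rose. Lrp8 (-0.68, 0.000237) and the lipolysis-stimulated receptor Lsr (-1.01, 0.000582) fell.

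Of 22 tested liver regulators, 14 fell, 5 rose and 3 did not pass in WT tumours, with a median log2 fold change of -1.15. Over all genes 25.0% were called lower and 25.0% higher, with a median of 0. Hnf4a, a nuclear receptor that binds promoters of many apolipoprotein genes in liver, stood at 76.1, 91.9, 184, 129 and 134 CPM in WT isotype and at 48.5, 27, 58.7, 15.5 and 13.5 CPM in WT combination. Its groups did not overlap (-1.9 ± 0.36, edgeR adjusted p = 0.000433), and its lowest combination libraries, replicates 4 and 5, were also the lowest for Apob. Within WT combination those libraries also had the lowest secretory hepatocyte sums (415 and 402 CPM) and the highest fibroblast sums (25800 and 22200 CPM). A link between Hnf4a and Apob was not tested. Ppara, a regulator of fatty acid oxidation, fell from 5.02 ± 3.05 to 1.12 ± 0.421 CPM (-2.14 ± 0.4, edgeR adjusted p = 0.000395). Srebf2, which drives cholesterol synthesis genes, fell (-0.91, 0.000143), and Cebpa, a liver and myeloid factor, rose (1.15, 8.62e-05). In B-depleted against WT under the combination 11 of the 22 were higher and 2 lower, beside 15.5% and 13.5% of all genes, among them Srebf2 (0.64, edgeR adjusted p = 0.00833) and Foxo1 (-0.61, 0.00679).

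The editing of Apob messenger RNA, which yields a short form of the protein, is carried out by Apobec1 with its partners A1cf and Rbm47. Editing itself cannot be read from gene counts. Apobec1 rose from 62.4 ± 2.78 to 128 ± 31.6 CPM in WT tumours (1.06 ± 0.13, edgeR adjusted p = 3.28e-05) while Apob fell. A1cf fell (-3.66 ± 1.09, edgeR adjusted p = 0.00954) from 0.11, 0, 8.7, 4.75 and 4.08 CPM in WT isotype to between 0.0593 and 0.818 CPM. Isotype replicates 1 and 2 were near 0 for A1cf, as they were low for Apoa1. Rbm47 changed by -0.2. Apobec1 is also made by myeloid cells, and under the combination it was lower in B-depleted than in WT tumours (-0.77, edgeR adjusted p = 0.00429).

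**Figure D5:**
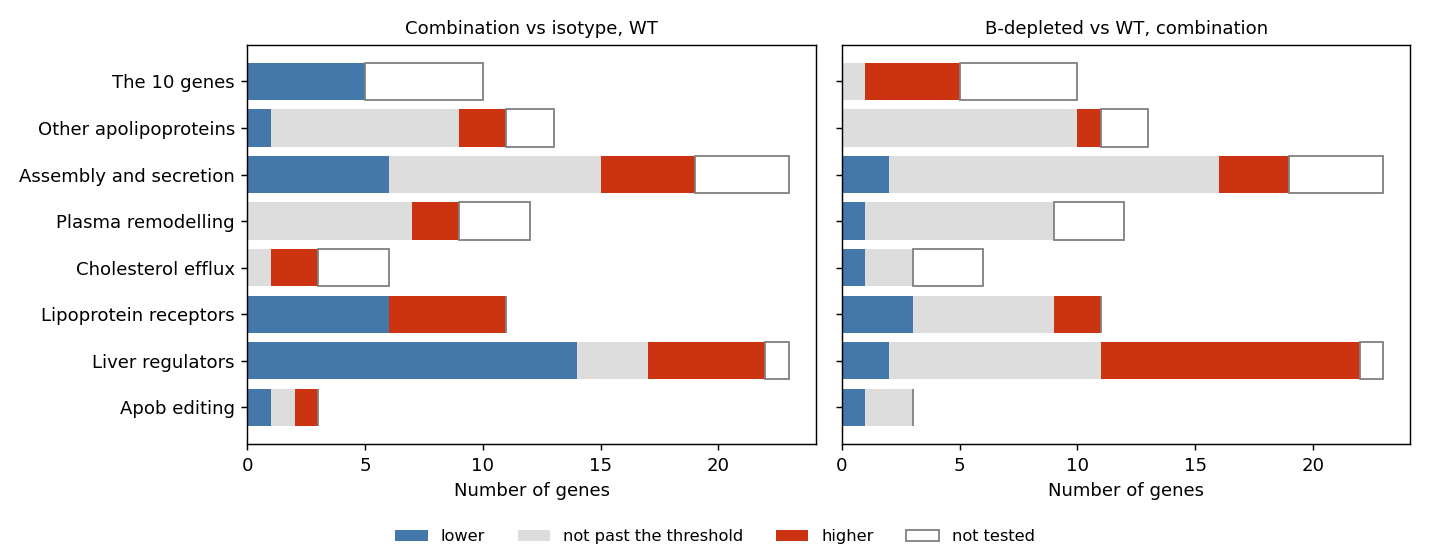
Number of genes lower, higher, not past the threshold and not tested in each list, for the WT antibody comparison (left) and for B-depleted against WT under the combination (right). In WT tumours the 5 tested lipoprotein genes were all lower and 14 of 22 liver regulators were lower, while each other list held genes that did not pass or that moved the other way.

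In the B-depleted antibody response, the comparison under isotype antibody and the interaction, edgeR called 0 genes in every one of these lists. The most abundant genes of each list in the B-depleted antibody response gave, for example, 0.89 ± 0.25 for Abcg1 (edgeR adjusted p = 0.117), 0.79 ± 0.23 for Abca1 (0.133) and -0.36 ± 0.14 for Srebf2 (0.248).

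Over the 21 libraries, which share the group differences, the 5 tested genes correlated with each other at Pearson's r of 0.56 (Apoc1 with Apoc2) to 0.9 (Apob with Apoc2, and Apoa1 with Mttp) in log2 CPM. The genes that varied most like Apob were Drd3 (r = 0.982) and Igf2bp3 (0.971), an oncofetal RNA-binding protein. Mttp was matched by Rev1 (0.978), Slc25a17 (0.978) and Ppp4r2 (0.969). Nearest to Apoa1 were Fer1l6 (0.964), Cpd (0.954) and Elovl2 (0.948), which lengthens polyunsaturated fatty acids, and nearest to Apoc2 were Ube2cbp (0.969), Tpcn1 (0.963) and Smo (0.958). Apoc1 had looser neighbours, Abcb1b (0.906), Rnf103 (0.899) and complement C5 (Hc, 0.898).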

How the data were processed

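Messenger RNA libraries (TruSeq Stranded mRNA) of total RNA from 21 tumours were sequenced, per the labels' protocols. The table the authors deposited gives raw read counts of 55487 identifiers; cutadapt 2.4, STAR 2.7.2a and GRCm38 are named in the submitters' processing notes, while no source used here gives the counting program, the strand setting or the annotation. Symbols, exon lengths and positions came from GENCODE M21; the 260 identifiers without a symbol held 0.0183% of counts. Total counts ran from 9.52 to 19.17 M (median 15.9 M), so 1 CPM is 9.52 to 19.17 reads and genes under 1 CPM rest on few reads.

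Counts were filtered with filterByExpr (19061 genes), scaled by TMM (factors 0.953 to 1.029) and fitted on all 21 libraries in 1 model of 4 groups with edgeR 4.0.16 (robust quasi-likelihood) in R 4.3.3, with limma 3.58.1 and DESeq2 1.42.0 among the alternatives; p-values were adjusted by Benjamini-Hochberg over all genes tested in each of 5 comparisons. The script was tested on simulated data. CPM uses the library total without scaling factors, and likeness used log2 CPM with a prior count of 2. No columns were identical.

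The genes and lists were chosen with earlier results of these data known. All 10 genes were named; in each list, up to 4 called genes of smallest p in the WT comparison and up to 2 elsewhere, or the 2 of highest mean CPM where none was called; and for each tested gene the 3 of highest Pearson's r, leaving out predicted genes, Riken clones and pseudogenes. Of the genes without a call, 3 are given as examples, and genes mentioned beyond the rule were chosen after their values were seen. One gene the rule gives is not reported here. Promoter letters were read from RefSeq windows of GRCm38.p6. Alternatives covered scaling, filtering, test, covariates, depth and left-out libraries.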

Additional observations from a re-analysis of the deposited data

Results flagged for a closer look

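Among 20 combinations of a tested gene and a group of 5 or 6 libraries, 3 held a library far from the others (a gap to the nearest library that was large for the group's range). Chance gives about 1 in 20 such groups. Apoa1 in WT combination was at 0.818 CPM in replicate 3, beside 0.281 CPM in the next library, a gap of 0.711 of the range. Apoa1 in B-depleted isotype was at 7.2 CPM in replicate 6, beside 3.12 CPM in the next, a gap of 0.76 of the range. Without that library the B-depleted antibody response of Apoa1 was 0.05 in place of -0.37. Apoc2 in B-depleted isotype was at 3.4 CPM in replicate 2, beside 2.19 CPM in the next, a gap of 0.728 of the range.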

How the results depend on the processing

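In the WT comparison the 5 tested genes were called in each of 21 refits that left out 1 library, with log2 fold changes of -2.46 to -1.87 (Apob), -5.11 to -3.43 (Apoa1), -2.26 to -1.58 (Apoc1), -2.43 to -2.06 (Apoc2) and -1.26 to -0.91 (Mttp). In the same refits 0 of the 5 were called in the B-depleted antibody response and in the isotype comparison, 3 to 4 in B-depleted against WT under the combination, and 0 to 3 in the interaction; calls over all genes ran from 7691 to 10240 in WT, 11 to 176, 0 to 2, 2182 to 7606 and 0 to 1540 in that order. Under other settings the count of the 5 was 0 with the Y-linked covariate and 4 by limma-voom in WT. In B-depleted against WT under the combination it was 0 with the covariate, 3 by limma-voom, 3 with only the groups compared and 5 without WT isotype replicates 1 and 2, and in the interaction 3 (DESeq2) and 5 (without those replicates). Over all genes, DESeq2 called 397 (B-depleted response), 5 (isotype) and 1210 (interaction) where edgeR called 65, 0 and 5. For the B-depleted response, limma-voom called 103, no filter 35, the groups compared alone 6, and the Y-linked covariate 31; without WT isotype replicates 1 and 2 it was 40, and without the library holding B-cell transcripts 176. In the isotype comparison it was 1 with no filter, 16 with the covariate and 25 without WT isotype replicates 1 and 2. With no filter B-depleted against WT under the combination had 3343 calls, and 4 with the covariate, in place of 5545. The WT calls were 77 with the covariate in place of 9529. The interaction had 0 with the covariate, 2007 without WT isotype replicates 1 and 2, and 1 without the library holding B-cell transcripts.

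The replicate numbers of the titles did not pair the libraries: 30 same-numbered pairs had correlations from -0.36 to 0.55 (mean 0.03), and 9 were over 0.1. With these numbers as a replicate block, calls were 9583 in WT, 33 in the B-depleted response, 1 in the isotype comparison, 6071 in B-depleted against WT under the combination and 0 in the interaction, with 5 and 4 of the 5 genes called in WT and in the latter comparison of B-depletion. With the numbers of the description codes as the block, 14 and 1 genes were called in the B-depleted response and the isotype comparison.

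Signs turned only in comparisons without a call for these genes. In the B-depleted response the covariate gave 0.31 for Apoa1, 0.01 for Apoc2 and 0.05 for Mttp, and leaving out 1 library gave -0.63 to 0.05 for Apoa1. In the isotype comparison leaving out 1 library gave -1.2 to 0.04 for Apoa1 and -0.14 to 0.22 for Mttp, thinning to equal depth gave 0.04 for Apoc2, and Mttp was -0.06 with the title block and -0.34 without WT isotype replicates 1 and 2. The cause of these changes was not tested. Depth limits Apoa2, Apoa4, Apoc3, Apoh and Apom, which had too few reads to enter the tests. In a fit with no filter, Apoh had a WT log2 fold change of -3.54 ± 0.94 (edgeR adjusted p = 0.00722) from 34 reads.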
